A study of Mus musculus with 6 samples.

Results

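The nuclear hormone receptors are a family of transcription factors, many of which are switched on by small lipid-soluble ligands such as steroids, retinoids, thyroid hormone, vitamin D and fatty acids. The 46 receptors described here are a written list of family members, chosen by gene symbol. The list was not drawn from their values, but earlier results of these data were known when it was chosen. All 46 were found among the 20263 genes of the array, each represented by its brightest probe set. The samples were whole ventral and dorsolateral lobes of regenerating mouse prostate, 3 from Gli1-/- mice and 3 from wild-type mice, 1 mouse per sample. All mice were 10 weeks old by the labels, and both groups had been castrated at 8 weeks, given a testosterone pellet 2 weeks later and collected 3 days after that. The labels call the mutation loss of function. Neither the allele nor the strain is stated in the labels, and no batch is named, so no value within a batch can be given.

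Receptors of this family share a zinc-finger domain that binds short DNA hexamers and, in most members, a pocket that holds the ligand. Steroid receptors bind DNA as pairs of themselves, whereas the receptors for retinoic acid, vitamin D, thyroid hormone, oxysterols and fatty acids pair with a retinoid X receptor. In the prostate, testosterone acts through the androgen receptor of epithelium and stroma, and retinoids, oestrogens and vitamin D are known to alter growth and differentiation of the gland. The androgen receptor is not among the 46.

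Peroxisome proliferator-activated receptor gamma, Pparg, stood apart in size, with a mean 2.14-fold higher in the mutants. The next largest differences were in the vitamin D receptor Vdr, 1.73-fold higher, and in the inducible orphan receptor Nr4a2, 1.36-fold lower. None of the 46 passed the test, limma with Benjamini-Hochberg adjustment over all genes and an adjusted p under 0.05 (0 of 46, where 4 of 20263 genes, 0.0197%, passed). At an unadjusted p under 0.05 there were 6 receptors, 4 higher and 2 lower in the mutants. That is 13.0% of the family, where 10.5% of all genes had such a p (5.93% higher and 4.58% lower). Without Gli1-/- mouse 1 there was 1 such receptor, without wild-type mouse 2 or wild-type mouse 3 there were 3, and without wild-type mouse 1 there were 11. With all mice the share of receptors was therefore close to the background, and the counts moved with single mice. The shares of all genes with a mouse left out are not given here.

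In 6 of the 46 receptors (13.0%) the values of the groups did not overlap, 4 higher and 2 lower in the mutants, where 14.3% of all genes did not overlap (8.34% higher and 6.01% lower). The median log2 change was 0.04 over the receptors and -0.005 over all genes, and 27 receptors (58.7%) against 48.5% of all genes had a positive change. The quartiles were -0.05 and 0.17 over the receptors, against -0.12 and 0.10 over all genes. For 33 receptors the 95% interval lay within 0.5 of 0 on the log2 scale. For the other 13 the interval reached a larger change. They were Pparg, Vdr, Nr4a2, Rxra, Rxrg, Rara, Rarb, Rarg, Nr1d1, Nr1i2, Nr4a1, Nr4a3 and Nr0b1.

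**Figure D1:**
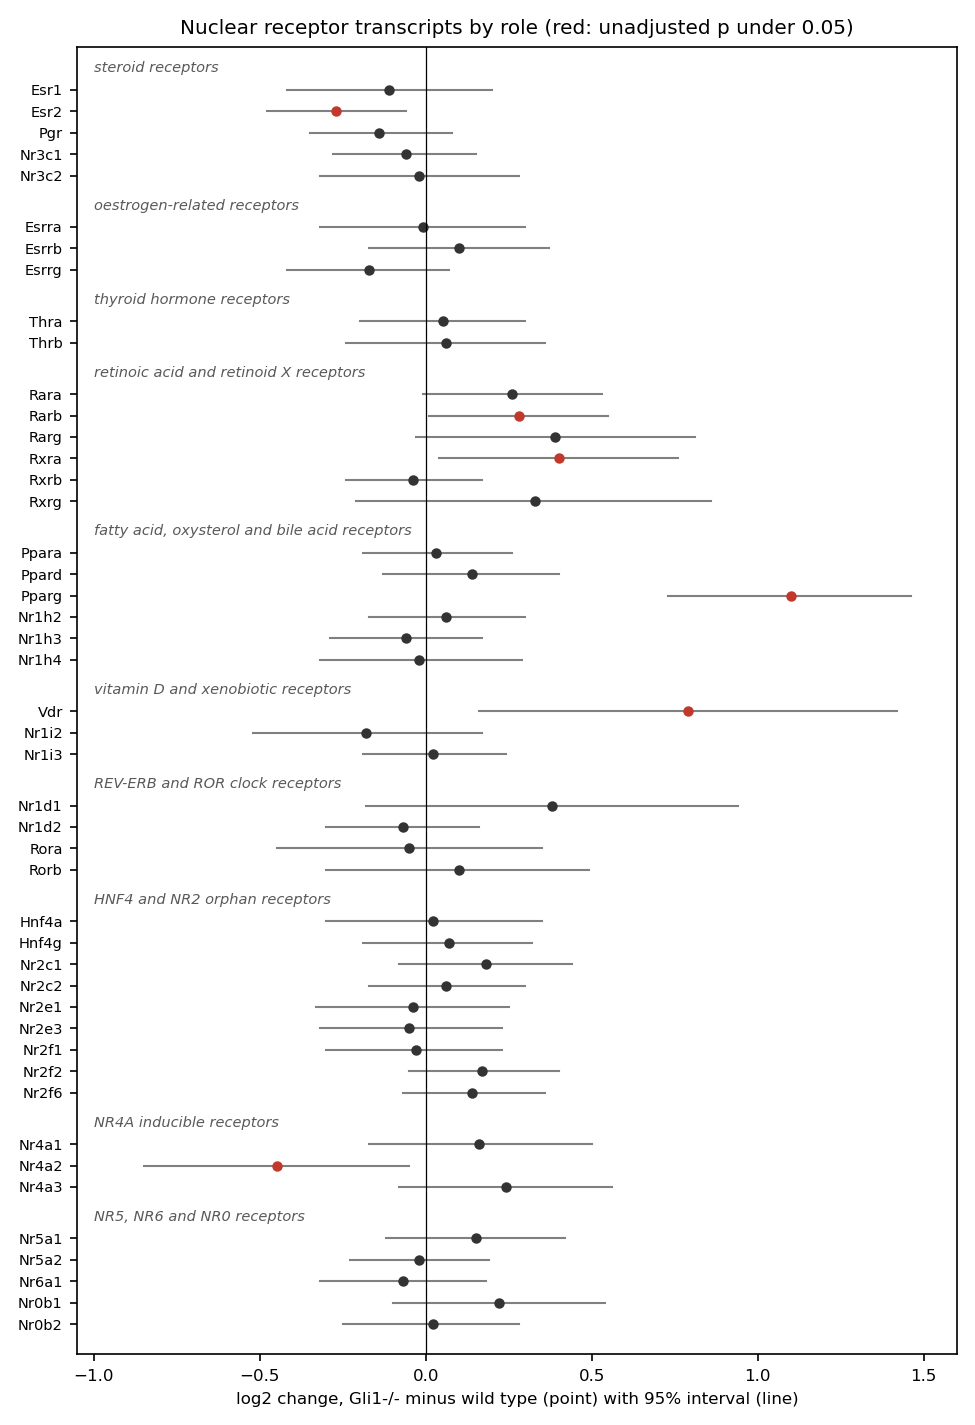
Log2 change (Gli1-/- minus wild type, horizontal axis) of the 46 receptors, grouped by role down the page, with the 95% interval from limma as a line. Red points mark the 6 receptors with an unadjusted p under 0.05, and Pparg at 1.10 lies farthest from 0.

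The Gli1 transcript gave no check of the labels. It read 6.34, 6.27 and 6.29 in Gli1-/- mice 1 to 3, against 6.28, 6.48 and 6.51 in wild-type animals 1 to 3 on the log2 scale (log2 change -0.12, SE 0.10, limma adjusted p = 0.732), and whether its probes lie in the part that the allele removes is unknown. RNA of whole lobes was measured, so fewer cells of a type and less RNA per cell cannot be told apart in any value here. Of the 46 receptors, 27 lay above the median of the 20263 genes, taken within each mouse, in at least 3 mice. The other 19, among them Esr2, Pgr, Rarb, Ppara and Nr4a3, were dimmer by that measure, and the array compresses differences among dim genes.

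The receptors for fatty acids, oxysterols and bile acids held the largest difference of the family. Pparg, a regulator of lipid storage and of epithelial differentiation that also acts in macrophages, read 8.09, 8.38 and 8.47 in Gli1-/- mice 1 to 3, against 7.43, 7.30 and 6.94 in wild-type animals 1 to 3. All mutants were above all wild-type mice, with a gap wider than the range of either group. The group means were 8.31 ± 0.20 in the mutants and 7.22 ± 0.25 in wild type (SD, n = 3 each), a log2 change of 1.10 with a 95% interval from 0.73 to 1.46. The limma adjusted p was 0.0955 (unadjusted p = 0.000141), so Pparg missed the threshold and was 30th of all genes by p, the last of 30 genes with an adjusted p under 0.10. A second, dimmer Pparg probe set read 7.69, 7.87 and 7.91 in the mutants against 7.06, 6.86 and 6.83 in wild type, again without overlap (log2 change 0.91). With each mouse left out, the log2 change of Pparg ran from 0.95 to 1.21 and its limma adjusted p from 0.088 to 0.28.

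Pparg is transcribed from several starts, and the RefSeq tables hold a promoter for 3 of them. They are shown because Pparg differed most, as the 250 bases before each start in build GRCm38.p6, 5′ to 3′ on the gene's strand. Capitals mark AGGTCA, the core hexamer that many nuclear receptors bind, on either strand.
Pparg promoter, chr6:115360894-115361143, + strand: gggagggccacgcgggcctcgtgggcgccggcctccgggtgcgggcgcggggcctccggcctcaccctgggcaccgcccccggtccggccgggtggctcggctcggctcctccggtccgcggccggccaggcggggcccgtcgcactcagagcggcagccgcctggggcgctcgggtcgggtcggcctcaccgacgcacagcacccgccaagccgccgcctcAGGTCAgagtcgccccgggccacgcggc
Pparg promoter, chr6:115362099-115362348, + strand: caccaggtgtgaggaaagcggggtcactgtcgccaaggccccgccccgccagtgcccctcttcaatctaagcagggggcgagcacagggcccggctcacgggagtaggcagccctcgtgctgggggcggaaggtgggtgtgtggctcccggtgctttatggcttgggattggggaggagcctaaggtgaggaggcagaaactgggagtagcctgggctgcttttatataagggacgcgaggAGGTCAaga
Pparg promoter, chr6:115421816-115422065, + strand: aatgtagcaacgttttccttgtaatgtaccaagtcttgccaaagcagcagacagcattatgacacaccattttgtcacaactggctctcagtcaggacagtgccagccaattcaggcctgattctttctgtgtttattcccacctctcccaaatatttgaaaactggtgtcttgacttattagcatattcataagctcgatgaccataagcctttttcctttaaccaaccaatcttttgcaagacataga
The upstream starts carry an AGGTCA each, at -28 to -23 and at -9 to -4 from the start, and the third window holds none. AGGTCA, searched on both strands, lies in 14% of 32851 mouse promoter windows of this length and in 11 of 63 windows of the receptors (17.5%), so these matches describe the letters only. The longer Gli motif GACCACCCA was in 0 of the 63 receptor windows and in 0.225% of all windows, and its shorter core CCACCCA was in 6 of the 63 and in 8.11% of all, overlaps between the motifs included. Which probe set reads transcripts from which start is unknown here.

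Among known targets of the fatty acid receptors no difference passed. Of 16 measured genes of that list 0 passed the limma test and 0 had an unadjusted p under 0.05, with a median log2 change of 0.08. Among those with the smallest p values were the lipoprotein lipase gene Lpl (log2 change 0.69, SE 0.35) and the fatty acid oxidation gene Acadm (0.15, SE 0.09). Lpl was high in Gli1-/- mice 1 and 3, at 10.09 and 9.97, whereas Gli1-/- mouse 2 read 8.65, below the 8.72, 8.92 and 8.99 of wild-type mice 1 to 3. Without Gli1-/- mouse 2 the Lpl change was 1.15 (limma adjusted p = 0.049). Picked after their values were seen, the fat-cell genes Fabp4 and Adipoq differed by 0.00 (SE 0.20) and -0.03 (SE 0.15).

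Markers of several cell types that are known to express Pparg were set beside it. The 9 adipocyte markers had a median of -0.03, 4 positive and 5 negative, and their mean log2 level ran from 6.64 to 6.94 in the mutants and from 6.57 to 6.86 in wild type. The 6 urothelial markers had a median of -0.03, with levels from 7.94 to 8.22 in the mutants and from 8.05 to 8.19 in wild type. The 14 macrophage markers, by contrast, differed in the direction of Pparg, with 13 positive and a median of 0.57. Of these markers 0 passed the limma test and 11 were higher at an unadjusted p under 0.05 (against 5.93% higher among all genes). Their mean level ran from 8.58 to 9.11 in the mutants and from 8.15 to 8.48 in wild type. Luminal epithelial markers also did not overlap, at 10.82 to 10.89 in the mutants and 10.48 to 10.66 in wild type (8 of 11 positive, median 0.19). Mean levels of the lymphocyte, smooth muscle, fibroblast, basal and secretory lists did not overlap either. A lack of overlap was therefore not particular to macrophage and luminal markers. An array has no true 0, so no marker can be called absent. The part of macrophages or luminal cells in the Pparg difference was not tested. In Gli1-/- mice 1 to 3 the macrophage scores were 0.39, 0.50 and -0.03 and the luminal scores 0.18, 0.11 and 0.14. Pparg was lowest in mouse 1 and highest in mouse 3 of that group. The order of 3 mice cannot decide the part of either cell type.

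The sister receptors of Pparg were close to level. Ppara, which drives fatty acid oxidation, differed by 0.03 (SE 0.10), and the widely expressed Ppard by 0.14 (SE 0.11), with intervals from -0.19 to 0.26 and from -0.13 to 0.40. The oxysterol receptors Nr1h2 and Nr1h3, which turn on cholesterol export, differed by 0.06 (SE 0.10) and -0.06 (SE 0.10), and the bile acid receptor Nr1h4 by -0.02 (SE 0.13). Oxysterol and bile acid targets had 10 of 13 positive changes and a median of 0.22, which was 0.13 without Gli1-/- mouse 1. In that list 0 passed the limma test and 4, all higher, had an unadjusted p under 0.05 (against 5.93% higher among all genes). Mylip, which promotes breakdown of the LDL receptor, read 10.92, 10.82 and 10.78 in the mutants and 10.56, 10.27 and 9.87 in wild type, and the cholesterol exporter gene Abcg1 read 7.57, 7.91 and 7.28 against 7.03, 7.06 and 7.08. Their log2 changes were 0.61 (SE 0.17) and 0.53 (SE 0.16), with limma adjusted p = 0.28 and 0.3. Abcg1 is also active in macrophages, whose markers were higher in the same mice as given above. The part of macrophages in the Abcg1 difference was not tested. The phospholipid-remodelling gene Lpcat3 differed by 0.29 (SE 0.12).

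**Figure D2:**
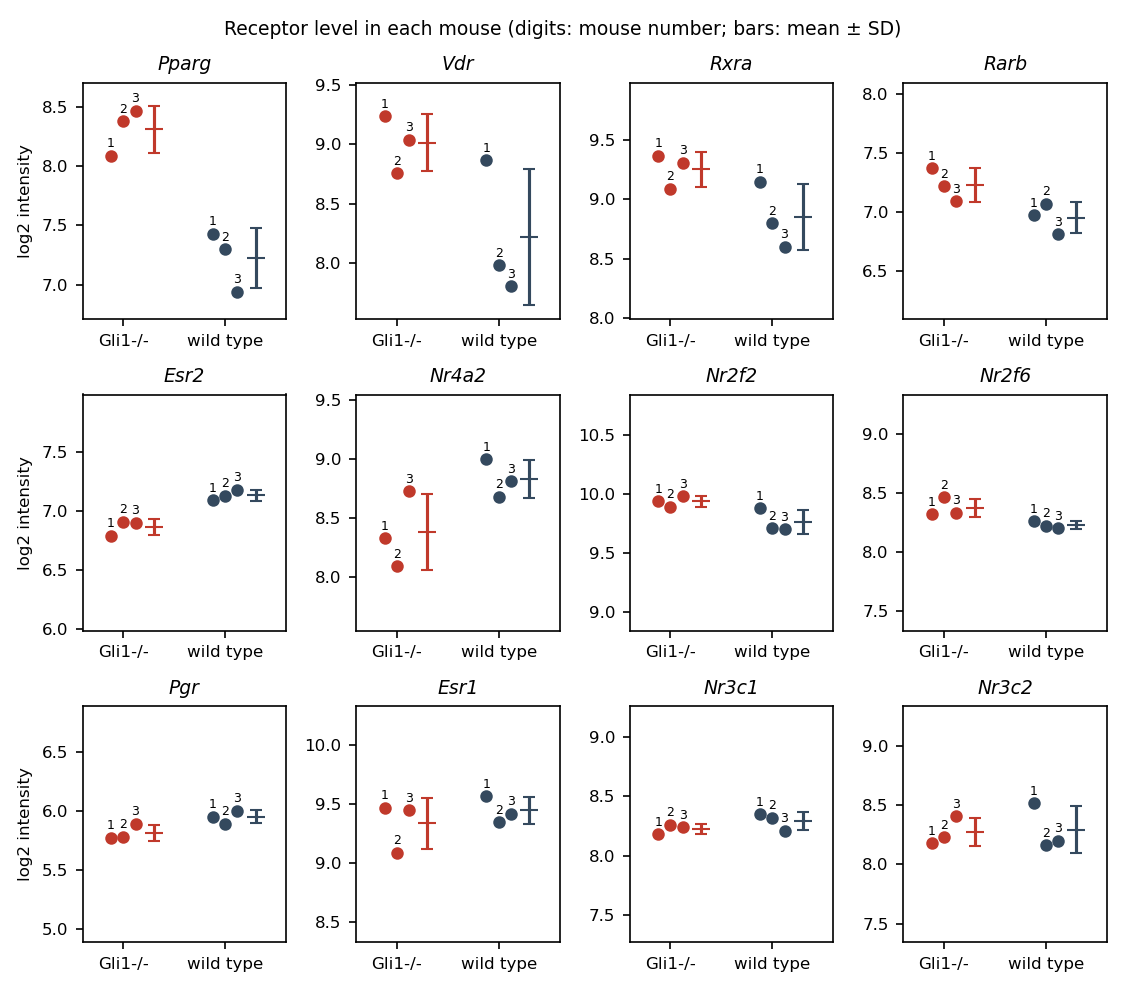
Log2 intensity (vertical axis, 2 units high in every panel) of 12 receptors in each Gli1-/- mouse (red, left) and each wild-type mouse (blue, right), with digits for the mouse number and bars for the mean ± SD of 3 mice. Pparg separates the groups by the widest gap, while for Vdr and Rxra wild-type mouse 1 lies among the mutants.

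Among the 6 retinoic acid and retinoid X receptors 5 were higher on average in the mutants, with a median log2 change of 0.30, and 0 passed. Rxra, the shared partner of many receptors of the family, read 9.37, 9.09 and 9.31 in Gli1-/- mice 1 to 3, against 9.15, 8.80 and 8.60 in wild-type animals 1 to 3. The groups overlapped through wild-type mouse 1, which lay above Gli1-/- mouse 2. The log2 change was 0.40 (SE 0.16, 95% interval 0.04 to 0.76, limma adjusted p = 0.428), and it was 0.28 without wild-type mouse 3 and 0.55 without wild-type mouse 1. Its relatives Rxrb and Rxrg differed by -0.04 (SE 0.09) and 0.33 (SE 0.23). For Rxrg a single low value, 6.87 in wild-type mouse 3, set the difference, since all the other mice read 7.59 to 7.86.

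The 3 retinoic acid receptors were all higher on average. Rarb, which is both a retinoic acid receptor and a direct target of its family, read 7.37, 7.22 and 7.09 in the mutants and 6.97, 7.07 and 6.81 in wild type. Every mutant was above every wild-type mouse, though the lowest mutant and the highest wild-type mouse were close. Its log2 change was 0.28 (SE 0.12, limma adjusted p = 0.461). Rara (0.26, SE 0.12) and Rarg (0.39, SE 0.18), the forms known from many tissues and from epithelium, overlapped between the groups, with 2 of 3 mutants above all wild-type mice in each case. All 4 probe sets of Rara differed by 0.26 to 0.29 and both of Rarg by 0.38 to 0.39.

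The promoter of Rarb is shown because it holds the classical retinoic acid response element, a direct repeat that ties its level to retinoic acid signalling. Capitals mark the repeat, a pair of hexamers in one direction with NNNNN between them, where each may be AGGTCA, the variant AGTTCA, the variant GGGTCA or the further variant GGTTCA.
Rarb promoter, chr14:16575477-16575726, - strand: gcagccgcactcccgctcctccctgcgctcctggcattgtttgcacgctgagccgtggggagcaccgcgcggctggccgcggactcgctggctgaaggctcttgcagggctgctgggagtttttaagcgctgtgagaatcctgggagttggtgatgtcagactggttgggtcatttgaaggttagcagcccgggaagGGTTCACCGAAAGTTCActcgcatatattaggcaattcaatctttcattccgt
The repeat ran from -53 to -37 before the start. Searched on both strands, such a repeat was in 29 of 32851 promoter windows (0.0883%) and in this 1 of the 63 receptor windows.

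Genes of retinoic acid supply and response had 10 of 15 positive changes and a median of 0.13, with 0 passing the limma test. At an unadjusted p under 0.05, 4 were higher, Rarb among them (against 5.93% higher among all genes). The median of the list was 0.07 without Gli1-/- mouse 1, and 0.25 without Gli1-/- mouse 3 or without wild-type mouse 1. Aldh1a2, the enzyme gene for retinoic acid synthesis, read 6.83, 6.38 and 6.77 in the mutants and 5.95, 5.97 and 6.28 in wild type (log2 change 0.59, SE 0.15, limma adjusted p = 0.254). Dhrs3, a retinaldehyde reductase gene that retinoic acid induces, differed by 0.48 (SE 0.14), and the retinol-esterifying enzyme gene Lrat by 0.71 (SE 0.27). In all 3 the groups did not overlap. Cyp26a1, the retinoic acid-degrading enzyme gene that is among the most inducible targets, differed by -0.01 (SE 0.09), and its relative Cyp26b1 by 0.13 (SE 0.10). These 2 were picked after their values were seen. Fibroblast markers, of cells that carry Aldh1a2 in many organs, had 10 of 11 positive changes and a median of 0.38, with mean levels from 9.05 to 9.49 in the mutants and from 8.79 to 8.90 in wild type. Their part in the retinoid values was not tested.

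The vitamin D receptor Vdr read 9.24, 8.76 and 9.04 in Gli1-/- mice 1 to 3, against 8.87, 7.98 and 7.80 in wild-type animals 1 to 3. Wild-type mice 2 and 3 were far below every mutant, whereas wild-type mouse 1 was above Gli1-/- mouse 2. The means were 9.01 ± 0.24 in the mutants and 8.22 ± 0.58 in wild type (SD, n = 3 each), a log2 change of 0.79 (SE 0.27, 95% interval 0.16 to 1.42, limma adjusted p = 0.378). It was 1.12 without wild-type mouse 1 (limma adjusted p = 0.088) and 0.58 without wild-type mouse 3. Luminal and basal epithelial markers were also highest in mouse 1 of each group. The luminal scores were 0.18, 0.11 and 0.14 in Gli1-/- mice 1 to 3, against -0.05, -0.14 and -0.23 in wild-type animals 1 to 3. The basal scores were 0.33, 0.15 and -0.01 in Gli1-/- mice 1 to 3, against -0.02, -0.25 and -0.21 in wild-type animals 1 to 3. All 9 basal markers were positive (median 0.35, levels 9.41 to 9.75 in the mutants and 9.17 to 9.40 in wild type), and the luminal list is given beside Pparg above. The part of either cell type in the Vdr difference was not tested, and the order of 3 mice a group cannot decide it.

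Targets of Vdr and of the xenobiotic receptors had 9 of 10 negative changes and a median of -0.08, with 0 passing the limma test. At an unadjusted p under 0.05, 1 was lower (against 4.58% lower among all genes). The median of the list was -0.01 without wild-type mouse 3, -0.12 without Gli1-/- mouse 1 and -0.37 with dim probe sets left out. That last value is the change of a single gene, Cyp2b10 (limma unadjusted p = 0.408). The filter left few genes of this list, with S100g and Cyp24a1 among those removed. Trpv6, the gene of an epithelial calcium channel, read 10.14, 8.78 and 9.85 in the mutants and 10.56, 10.43 and 10.14 in wild type (log2 change -0.79, SE 0.32, limma adjusted p = 0.457). Gli1-/- mouse 2 was the low sample, while Gli1-/- mouse 1 and wild-type mouse 3 read alike. S100g, a calcium-binding protein gene, differed by -0.19 (SE 0.11). Cyp24a1, the vitamin D-degrading enzyme gene that is the usual readout of the receptor, was picked after its values were seen and differed by -0.03 (SE 0.11). The xenobiotic sensors Nr1i2 and Nr1i3, best known from liver, were dim and differed by -0.18 (SE 0.15) and 0.02 (SE 0.09).

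All 5 steroid receptors had a negative log2 change, from -0.27 to -0.02, and 0 passed. Esr2, the oestrogen receptor beta of prostate epithelium, read 6.79, 6.91 and 6.90 in Gli1-/- mice 1 to 3, against 7.09, 7.13 and 7.18 in wild-type animals 1 to 3. Every mutant was below every wild-type mouse, and the spread within each group was small. The log2 change was -0.27 (SE 0.09, 95% interval -0.48 to -0.06, limma adjusted p = 0.375), and its second probe set gave -0.24. With each mouse left out, the change stayed between -0.29 and -0.23. Secretory markers of prostate epithelium were lower in the same mice, 10 of 10 negative with a median of -0.70 and mean levels of 11.03 to 11.26 in the mutants and 11.93 to 12.29 in wild type. Their part in the Esr2 difference was not tested.

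Esr1, the oestrogen receptor alpha known mainly from prostate stroma, read 9.47, 9.09 and 9.45 in the mutants and 9.57, 9.35 and 9.42 in wild type. Only Gli1-/- mouse 2 stood below wild type, and without it the change of -0.11 (SE 0.13) became 0.02. The progesterone receptor gene Pgr, a classical oestrogen target, read 5.77, 5.78 and 5.89 in the mutants and 5.95, 5.89 and 6.00 in wild type. Its groups did not overlap, but Gli1-/- mouse 3 and wild-type mouse 2 read alike to 2 decimals, and the change was -0.14 (SE 0.09, limma adjusted p = 0.659). Targets of both hormones had 7 of 12 positive changes and a median of 0.03, with 0 passing the limma test. At an unadjusted p under 0.05 there were 3, all higher (against 5.93% higher among all genes). They were the lactoferrin gene Ltf (2.39, SE 0.53), the complement gene C3 (0.70, SE 0.13) and Wnt4 (0.29, SE 0.12). Ltf read 9.38, 9.63 and 7.34 in the mutants against 6.36, 6.24 and 6.59 in wild type, and without Gli1-/- mouse 3 its change was 3.11 (limma adjusted p = 0.00179). Ltf and C3 are also genes of inflamed epithelium and of myeloid cells, and macrophage markers were higher in these mutants as given above. The part of either cell type in the Ltf and C3 values was not tested.

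The corticosteroid receptors were nearly level. The glucocorticoid receptor Nr3c1 read 8.18, 8.26 and 8.24 in the mutants and 8.35, 8.32 and 8.21 in wild type, a change of -0.06 with a 95% interval from -0.28 to 0.15. The mineralocorticoid receptor Nr3c2 read 8.18, 8.23 and 8.41 in the mutants and 8.52, 8.16 and 8.20 in wild type, a change of -0.02 with an interval from -0.32 to 0.28. In both the groups overlapped. Glucocorticoid targets had 8 of 15 positive changes and a median of 0.03, 0 passing and 1 higher at an unadjusted p under 0.05, Nfkbia, the inhibitor of NF-kappaB (0.28, SE 0.10). Sgk1, a kinase gene induced by both receptors, differed by 0.26 (SE 0.12), and Errfi1 by 0.22 (SE 0.09). Among 7 mineralocorticoid targets 0 passed and 2 were higher at an unadjusted p under 0.05 (median 0.22). Over all genes 5.93% were higher at such a p. The sodium channel gene Scnn1a read 9.41, 8.28 and 8.72 in the mutants and 8.19, 7.85 and 7.51 in wild type (0.95, SE 0.29, limma adjusted p = 0.314).

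The chaperones that hold steroid receptors ready for ligand were lower on average, with 10 of 12 negative changes and a median of -0.09. None passed the limma test (0 of 12) and 2, both lower, had an unadjusted p under 0.05 (against 4.58% lower among all genes). Fkbp4, a receptor co-chaperone, read 10.29, 10.50 and 10.35 in the mutants and 10.57, 10.65 and 10.66 in wild type (-0.25, SE 0.10, limma adjusted p = 0.448). The heat shock co-chaperone gene Dnajb1 differed by -0.45 (SE 0.17) and Ptges3, which encodes the small chaperone of the Hsp90 complex, by -0.30 (SE 0.14). In these 3 genes the groups did not overlap.

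The oestrogen-related receptors, orphan relatives that act on mitochondrial genes, gave no large difference. Esrra differed by -0.01 (SE 0.13), Esrrb by 0.10 (SE 0.11) and Esrrg by -0.17 (SE 0.11). Their coactivator gene Ppargc1a, which also binds the PPAR gamma protein, read 8.64, 8.36 and 8.63 in the mutants and 8.14, 7.88 and 7.26 in wild type. All mutants were above all wild-type mice, and wild-type mouse 3 was the lowest by a wide margin (log2 change 0.78, SE 0.22, limma adjusted p = 0.278). Of the 17 coactivators 12 were positive with a median of 0.10, and 0 passed the limma test. At an unadjusted p under 0.05, 2 were higher and 1 lower (against 5.93% higher and 4.58% lower among all genes). Besides Ppargc1a they were Pnrc1 (0.30, SE 0.09) and Ncoa4, a coactivator that also carries ferritin to breakdown, which read 10.27, 10.46 and 10.55 in the mutants against 10.79, 10.93 and 11.20 in wild type (-0.55, SE 0.14, limma adjusted p = 0.239). The 12 corepressors had a median of 0.06, 10 positive changes, 0 passing and 1 higher at an unadjusted p under 0.05. That gene was Gps2, a subunit of the NCoR complex (0.25, SE 0.09). Its fellow subunit gene Tbl1xr1 differed by 0.25 (SE 0.13) and Lcor by -0.19 (SE 0.11).

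**Figure D3:**
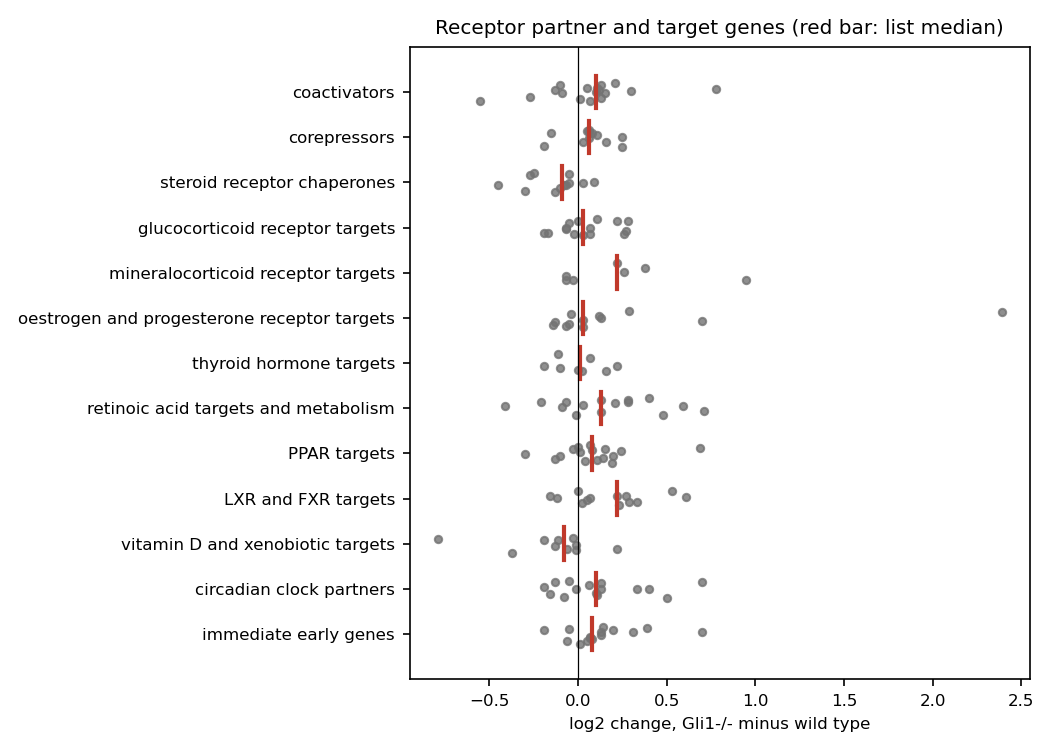
Log2 change (Gli1-/- minus wild type, horizontal axis) of each gene (grey dot) in 13 lists of receptor partners and targets, with the list median as a red bar. Medians lie between -0.09 for steroid receptor chaperones and 0.22 for oxysterol and mineralocorticoid targets, and the dot farthest right is Ltf at 2.39.

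The inducible NR4A receptors, which respond to growth signals within hours without a known natural ligand, differed in sign. Nr4a2 read 8.33, 8.09 and 8.73 in Gli1-/- mice 1 to 3, against 9.0, 8.68 and 8.81 in wild-type animals 1 to 3. Gli1-/- mouse 3 lay within the wild-type range and the other mutants below it, giving a log2 change of -0.45 (SE 0.17, 95% interval -0.85 to -0.05, limma adjusted p = 0.43). Both probe sets gave like changes, -0.45 and -0.47, and the change was -0.30 without Gli1-/- mouse 2 and -0.62 without Gli1-/- mouse 3. Nr4a1 and Nr4a3 had the opposite sign, at 0.16 (SE 0.15) and 0.24 (SE 0.14). The difference between these sister genes was not tested. Immediate early genes, which are induced by the same signals, had 12 of 15 positive changes and a median of 0.08, with 0 passing. At an unadjusted p under 0.05, 2 were higher (against 5.93% higher among all genes). They were Ier3 (0.70, SE 0.17) and Egr1 (0.39, SE 0.14), and the mRNA-decay factor gene Zfp36 differed by 0.31 (SE 0.15).

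The clock receptors were split. Nr1d1, which encodes the circadian repressor REV-ERB alpha, read 10.20, 9.20 and 9.59 in the mutants and 9.51, 9.23 and 9.09 in wild type. Its difference of 0.38 (SE 0.24) rested on Gli1-/- mouse 1 and was 0.12 without it. Nr1d2 differed by -0.07 (SE 0.10), and the activators Rora and Rorb, which bind the same DNA element, by -0.05 (SE 0.17) and 0.10 (SE 0.17). Of 15 other clock genes 9 were positive with a median of 0.10, and 0 passed the limma test. At an unadjusted p under 0.05 there were 4, all higher (against 5.93% higher among all genes). Bhlhe40, a repressor of the clock and a stress-response gene, read 8.46, 8.05 and 8.28 in the mutants and 8.00, 7.38 and 7.31 in wild type (0.70, SE 0.20, limma adjusted p = 0.289). Npas2 and Bhlhe41 differed by 0.40 (SE 0.13) and 0.50 (SE 0.20). Arntl, the clock activator gene that REV-ERB proteins repress, was picked after its values were seen and differed by -0.08 (SE 0.12). The labels do not state the time of day of collection.

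Among the 9 HNF4 and NR2 orphan receptors the log2 changes ran from -0.05 to 0.18. Nr2f2, which encodes COUP-TFII of stroma and veins, read 9.94, 9.89 and 9.98 in the mutants and 9.88, 9.71 and 9.70 in wild type, without overlap but with wild-type mouse 1 close to the mutants (0.17, SE 0.10, limma adjusted p = 0.588). Its relative Nr2f6 also did not overlap, at 8.32, 8.46 and 8.33 in the mutants and 8.26, 8.22 and 8.20 in wild type (0.14, SE 0.09, limma adjusted p = 0.638). All 10 endothelial markers were positive (median 0.18, levels 7.64 to 7.90 in the mutants and 7.51 to 7.65 in wild type), and their part in the Nr2f2 value was not tested. The third member of that subfamily, Nr2f1, was dim and differed by -0.03 (SE 0.11). The testicular receptors Nr2c1 and Nr2c2 differed by 0.18 (SE 0.11) and 0.06 (SE 0.10). The liver and gut factors Hnf4a and Hnf4g, at 0.02 (SE 0.14) and 0.07 (SE 0.11), and the neural and retinal receptors Nr2e1 and Nr2e3, at -0.04 (SE 0.13) and -0.05 (SE 0.12), were all below the brightness limit.

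The thyroid hormone receptors Thra and Thrb differed by 0.05 (SE 0.11) and 0.06 (SE 0.13). Of 8 thyroid hormone targets 0 passed and 0 had an unadjusted p under 0.05, with a median of 0.01. The smallest p values there belonged to Klf9 (-0.19, SE 0.10), the corepressor gene Hr (0.16, SE 0.11) and the hormone-activating deiodinase gene Dio2 (0.22, SE 0.17). The remaining receptors are known from steroid-making glands, germ cells and liver. Nr5a1 differed by 0.15 (SE 0.12), Nr5a2 by -0.02 (SE 0.09), Nr6a1 by -0.07 (SE 0.11), and the atypical members without a zinc-finger domain, Nr0b1 and Nr0b2, by 0.22 (SE 0.14) and 0.02 (SE 0.12). Of the 16 receptors with several probe sets, Nr5a2 was the 1 in which they differed in sign (-0.02 and 0.08), and the widest spread between probe sets was 0.19, in Pparg.

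Within wild type the receptors did not vary evenly over the mice. Wild-type mouse 1 was the highest of its group for 26 of 46 receptors (56.5%, against 27.9% of all genes), and wild-type mouse 2 for 6 (13.0%, against 27.6%). Among the mutants, mouse 2 was the lowest for 24 receptors (52.2%, against 32.8% of all genes) and mouse 3 for 7 (15.2%, against 28.7%). The median SD between mice was 0.12 in the mutants and 0.15 in wild type for the receptors, and the same for all genes. Wild-type mouse 1 was thus the sample that most often closed the gap between the groups. Without it 21 receptors did not overlap and without Gli1-/- mouse 2 there were 13, although fewer mice make a lack of overlap easier to reach. The shares of all genes without overlap in those fits are not given here.

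**Figure D4:**
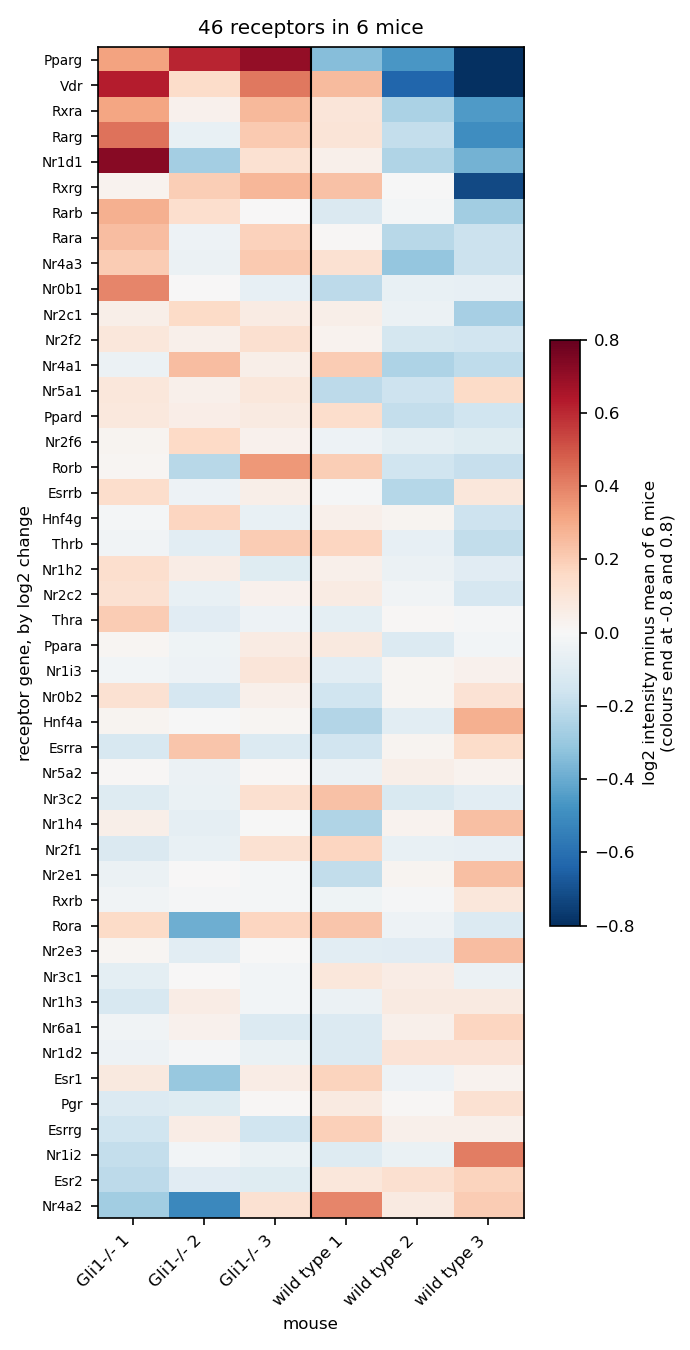
Log2 intensity minus the mean of the 6 mice (colour, ending at -0.8 and 0.8) for the 46 receptors down the page, ordered by log2 change, with the 3 Gli1-/- mice left of the line and the 3 wild-type mice right of it. Pparg and Vdr are at the top, Esr2 and Nr4a2 at the bottom, and Vdr, Rxra and Rarg are each lower in wild-type mouse 3 than in wild-type mouse 1.

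The remaining marker lists are given beside the receptors. Smooth muscle markers were lower, 11 of 11 negative with a median of -0.52 and mean levels of 9.15 to 9.51 in the mutants and 9.56 to 10.07 in wild type. Lymphocyte markers had 9 of 12 positive changes and a median of 0.23, and nerve markers a median of -0.01. Skeletal muscle markers were positive in 10 of 10 (median 0.89), with scores of 1.04, 0.53 and -0.21 in the mutants that overlapped the -0.86, 0.13 and -0.63 of wild type. Proliferation genes were negative in 12 of 12 (median -0.39), 1 of them at an unadjusted p under 0.05 (against 4.58% lower among all genes). Their scores of -0.58, 0.25 and -0.20 in the mutants overlapped the 0.47, 0.15 and -0.08 of wild type. Seminal vesicle markers separated single mice and not the groups, with scores of 0.96 in Gli1-/- mouse 2 and 1.41 in wild-type mouse 3 and of -0.27 or lower in the other 4. Of all these lists 1 gene passed the limma test, the secretory gene Spink11 (log2 change -3.12). The part of any of these cell types in the receptor values was not tested.

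**Figure D5:**
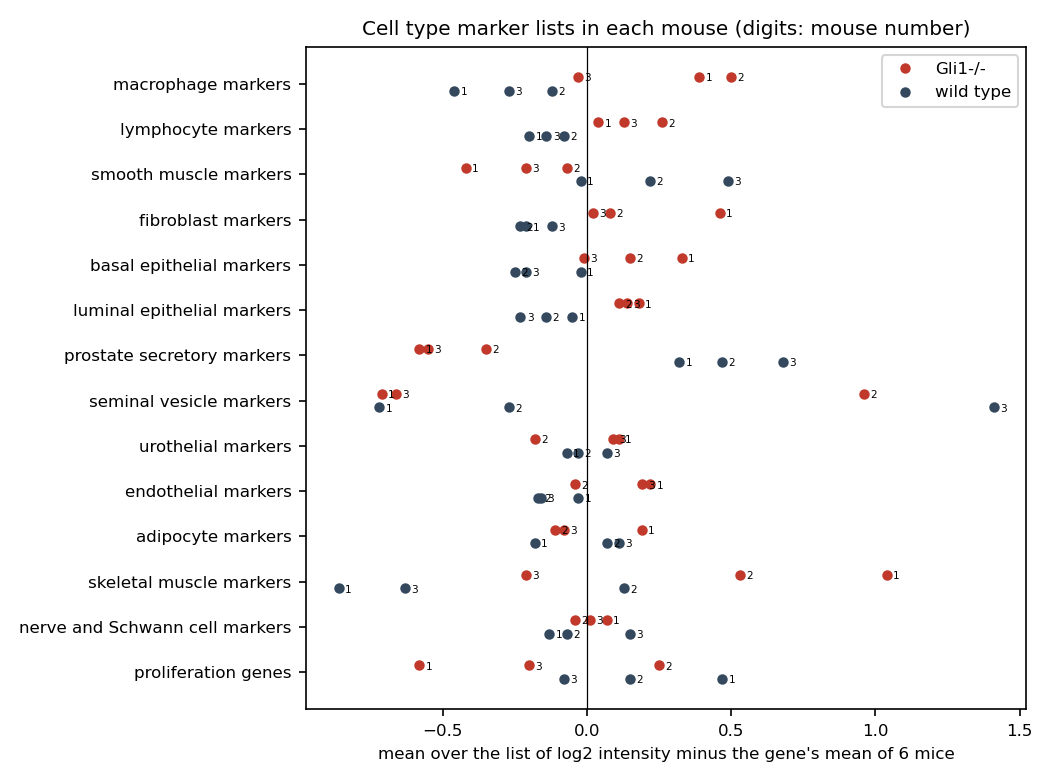
Mean over each marker list of log2 intensity minus the gene's mean of the 6 mice (horizontal axis), with Gli1-/- mice in red above wild-type mice in blue and digits for the mouse number. Macrophage, lymphocyte, smooth muscle, fibroblast, basal, luminal and secretory scores do not overlap between the groups. The basal scores come closest, at -0.01 in Gli1-/- mouse 3 and -0.02 in wild-type mouse 1. Scores of the other lists overlap, and seminal vesicle scores set Gli1-/- mouse 2 and wild-type mouse 3 apart.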

How the data were processed

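Expression was measured on a 1-colour array hybridised with biotin-labelled DNA targets made from prostate RNA of 6 mice, 3 Gli1-/- and 3 wild type. The authors deposited log2 intensities, 1 column per mouse, without missing values. The submitters' processing notes list RMA, a method of array summarisation, and the Partek software, with no version of either. The array model and its probe-set definition are unknown here. RMA corrects background and normalizes between arrays, which compresses fold changes of dim genes. Sample medians over all probe sets ran from 6.76 to 6.95. The brightness filter used the median over the genes instead, each with its brightest probe set.

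Probe sets were named through a RefSeq table (GRCm38.p6), by which 25343 of 32025 matched 1 gene, 0 matched several and 6682 none. The brightest probe set stood for each of 20263 genes. Gli1-/- minus wild type was fitted over all genes with limma 3.58.1 in R 4.3.3 (lmFit, eBayes, two-sided, no covariate), with Benjamini-Hochberg adjustment over all genes. SE and 95% intervals are from that fit and SD is over 3 mice. The fit was tested on simulated data. The number of arrays limits the precision, and the median SE was 0.123.

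The receptors, lists and tests were chosen with earlier results of these data known. Values in every mouse are given for steroid receptors and for receptors with an unadjusted p under 0.05 or no overlap. For other receptors they are given where a single mouse set the value. Up to 3 genes with the smallest p are named per partner or target list, 13 in all, with some not reported here, and 14 lists marked cell types. No set test was run. Promoter sequences are from RefSeq. The fit was repeated with mice left out, with the mean of probe sets, with a brightness filter, after median centring or quantile normalization, with array weights, with a variance trend, and with the replicate number as a block.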

Additional observations from a re-analysis of the deposited data

How the results depend on the processing

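With 3 mice a group, single mice and weights moved the counts more than the scaling did. The labels do not state whether replicate numbers pair the samples, and correlations among so few mice cannot decide it. Deviations of same-numbered mice correlated at 0.16, 0.25 and -0.15. Gli1-/- mice 1 and 2 were closest to their own number, and Gli1-/- mouse 3 was closest to wild-type mouse 1, at 0.25. With the replicate block 25 genes and 0 receptors passed, with median centring 8 and 0, and with dim probe sets left out 7 and 0, where 3 receptors did not overlap. Array weights put 7.22 on wild-type mouse 2 against 0.353 to 2.26 on the others. They called 4680 of 20263 genes and 11 of 46 receptors (15 at an unadjusted p under 0.05, median 0.09). Pparg had a limma adjusted p of 0.00403 there. Without Gli1-/- mouse 2 and wild-type mouse 1 together 868 genes passed, and 3 receptors, Pparg (adjusted p = 0.0366), Vdr (0.0242) and Rxra (0.0486), with 11 at an unadjusted p under 0.05, 31 without overlap and a median of 0.09. With each mouse left out 3 to 17 genes and 0 receptors passed, 1 to 11 receptors had an unadjusted p under 0.05, 7 to 21 did not overlap and the median was 0.02 to 0.08. The cause of these shifts was not tested. For these settings the shares of all genes at an unadjusted p under 0.05 or without overlap are not given. Those receptor counts therefore have no background beside them, and fewer mice make a lack of overlap easier to reach.

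Quantile normalization, median centring, the block and the trend changed the sign of 0 receptors. In 19 receptors near 0 the sign turned in at least 1 other alternative. With mice left out, singly or as the pair above, the lowest and highest log2 changes of these were Esr1 (-0.18 to 0.08), Nr3c2 (-0.09 to 0.12), Esrra (-0.21 to 0.06), Thra (-0.04 to 0.11), Thrb (-0.02 to 0.22), Rxrb (-0.07 to 0.000235) and Ppara (-0.01 to 0.11). For the rest they were Nr1h4 (-0.14 to 0.10), Nr1i3 (-0.02 to 0.05), Rora (-0.15 to 0.23), Rorb (-0.05 to 0.35), Hnf4a (-0.09 to 0.17), Hnf4g (-0.00486 to 0.11), Nr2e1 (-0.16 to 0.07), Nr2e3 (-0.10 to 0.06), Nr2f1 (-0.10 to 0.07), Nr5a2 (-0.05 to 0.00121), Nr6a1 (-0.17 to 0.000733) and Nr0b2 (-0.06 to 0.09). With array weights the turned values were Esr1 0.04, Nr3c2 0.15, Rora 0.12, Hnf4g -0.03, Nr2e3 0.07 and Nr2f1 0.09, and with the mean of probe sets Nr5a2 was 0.03. Medians of the partner and target lists also moved with each mouse left out, from 0.02 to 0.18 for coactivators, -0.01 to 0.16 for corepressors, -0.18 to -0.03 for chaperones, -0.02 to 0.07 for glucocorticoid targets, 0.16 to 0.27 for mineralocorticoid targets, 0.01 to 0.09 for oestrogen and progesterone targets and -0.03 to 0.05 for thyroid hormone targets. The ranges were 0.07 to 0.25 for retinoic acid genes, 0.03 to 0.13 for PPAR targets, 0.13 to 0.25 for oxysterol and bile acid targets, -0.12 to -0.01 for vitamin D and xenobiotic targets, 0.07 to 0.13 for clock genes and 0.05 to 0.16 for immediate early genes. With dim probe sets left out, the medians of glucocorticoid targets and of oestrogen and progesterone targets were -0.02 and 0.12. Signal near background limits the 19 dim receptors.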
